A study of Mus musculus with 2 samples.

Results

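A set of 7 forkhead genes was examined for occupancy by the POU-domain transcription factor POU3F1: Foxb1, Foxb2, Foxd3, Foxk1, Foxn4, Foxc1 and Foxo1. They were chosen by the assignment of peaks to genes in the deposited gene table, with earlier results of these data known, so having or lacking a peak, and the values of the peaks, are described here and not tested. Of the 7 genes, 5 had a row in the gene table, which lists 2323 genes in all, and these 5 held 13 gene and peak pairs of 4427. The other members, Foxn4 and Foxc1, had no row and therefore no assigned peak.

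The tissue was retina, taken from wild-type mice of strain CD1 at embryonic day 14. It was profiled by CUT&RUN, in which an antibody tethers a nuclease that releases the DNA around its target for sequencing. The first antibody recognised POU3F1 and the other was rabbit IgG, which has no target there, with 1 library for each. Neither had a replicate, so the values carry no replicate error. The peak list came from the POU3F1 library. Values of the IgG library were not used here. Whether its reads served as the control for peak calling is not stated in the labels or headers; if so, they enter the local backgrounds, folds and q-values. The number of embryos is not given in the sources used here.

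Forkhead proteins bind DNA through a winged-helix domain, and different members act in brain patterning, eye development, neural crest formation and metabolic signalling. Some open closed chromatin early in a lineage, and others are shuttled in and out of the nucleus by signalling kinases. In the retina, Foxn4 gives progenitors the competence to form amacrine and horizontal cells, and Foxd1 patterns its temporal part. POU3F1 recognises an octamer motif through a POU-specific domain and a POU homeodomain. Occupancy does not show whether a gene nearby is expressed, and no expression was measured in these libraries.

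The 13 peaks of the members were 13 different intervals. No peak could be assigned to more than 1 member, since the members with a peak lie on different chromosomes. The fold given by the authors compares the signal at a summit with its local background. It was read as the ratio of pileup plus 1 to background plus 1, as MACS2 computes it by default, so it is smaller than the plain ratio of the pileup and background printed below. It ran from 3.36 to 25.0 among them. Their median fold was 6.37, the same as the median over all 2652 peaks. At least 10-fold was reached by 4 of the 13 (30.8%), against 497 of all peaks (18.7%), and these 4 belonged to Foxb1 and Foxb2. The summit pileup, the number of sequenced fragments over the summit recovered from the fold and p-value, was 9 to 109 in the members' peaks, with a median of 25, against 19 over the 2608 peaks with a recovered pileup. Their length was 196 to 809 bp, with a median of 313 bp, against 352 bp over all peaks.

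Most of these peaks were far from the genes they were assigned to. The median distance to the transcription start site (TSS) was 81876 bp over the 13 pairs, against 160795 bp over all 4427. Upstream of the TSS lay 8 of the 13, against 42.7% of all pairs. Of all protein-coding genes, 10.2% had an assigned peak, while 5 of the 7 members did, a count that the choice of members fixed. Within 100 kb of the TSS, 3 of 7 members had a peak (Foxb1, Foxb2 and Foxd3) against 5.55% of protein-coding genes. Within 50 kb and within 5 kb the members with a peak were Foxb2 and Foxd3, against 3.67% and 1.4% of protein-coding genes. Counting each peak only for the assigned gene with the nearest TSS, 9 of the 13 pairs and all 5 genes remained, against 6.75% of protein-coding genes.

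**Figure D1:**
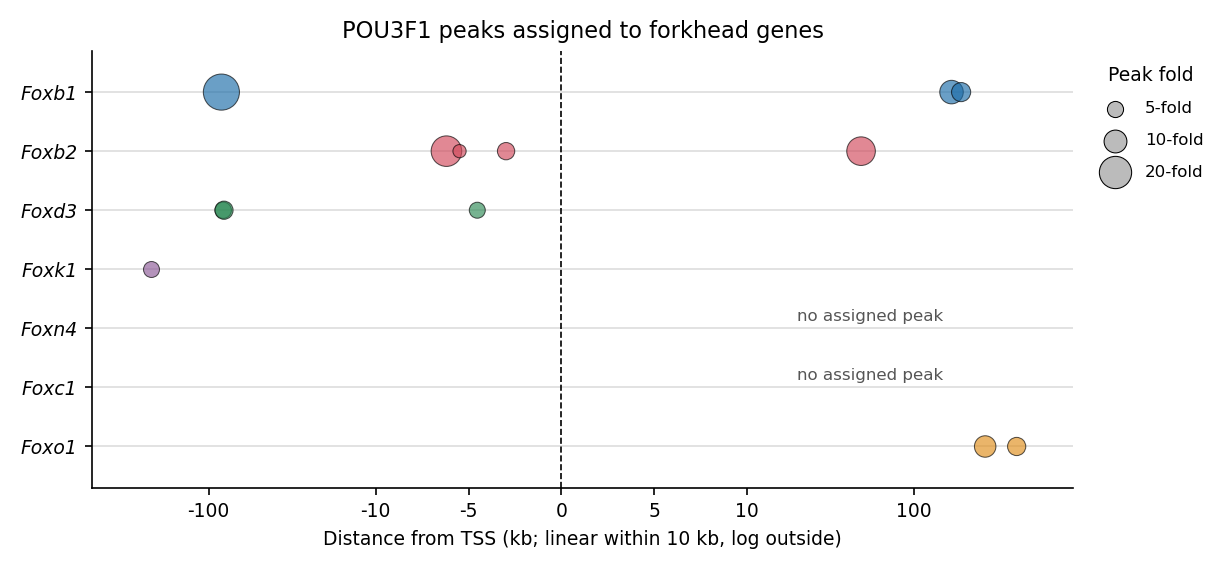
Signed distance from the TSS (horizontal axis, kb, linear within 10 kb and logarithmic outside) of the 13 POU3F1 peaks assigned to forkhead genes (rows), with circle area in proportion to the authors' fold. The Foxb1 peak at 83996 bp upstream has the largest circle (25.0-fold), the Foxb2 peaks include 3 between 2976 and 6190 bp upstream, 2 Foxd3 circles at 81876 and 81062 bp upstream overlap, and Foxn4 and Foxc1 have none.

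Foxb2 encodes a forkhead factor closely related to Foxb1 and active in the developing nervous system, and it had the most peaks of the members. The gene lies on the minus strand at chr19:16872316-16873830 (mm10), and its 4 peaks lay 6190, 5484 and 2976 bp upstream and 48300 bp downstream of the TSS. The peak at 6190 bp upstream (chr19:16879624-16880417) was 17.9-fold over background, with a summit pileup of 109 fragments (exact Poisson 95% interval 89.5 to 131, counting error only) against a local background of 5.14. Its −log10 q-value of 97.5 ranked 95 of 2652, the highest rank among the 13 peaks. A much weaker peak of 3.36-fold (chr19:16879217-16879412, pileup 11 fragments, interval 5.49 to 19.7) stood 211 bp from it. With a −log10 q-value of 1.45 it ranked 2637 and was the only member peak with a q-value above 0.01. The peak nearest to the TSS, at chr19:16876699-16876913, was 5.76-fold with a pileup of 12 fragments (interval 6.20 to 21.0). The peak downstream of the gene, at chr19:16825195-16825865, was 15.7-fold with a pileup of 31 fragments and ranked 196 by fold. The strong Foxb2 peaks were thus the outermost upstream and the downstream one, and those between them and the TSS were weak.

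All 4 Foxb2 peaks lay in sequence between genes, a share that was not computed over all peaks. Foxb2 lies in a span of 174596 bp between its protein-coding neighbours Vps13a, which encodes a lipid transfer protein, and Prune2. This span held those 4 peaks and no other, or 22.9 per Mb. Of 21583 protein-coding genes, 1.23% had at least 4 peaks in the span to their neighbours. That share was not matched on span, and 73.9% of these genes had a shorter span than Foxb2. The peaks at 6190 and 5484 bp upstream of Foxb2 were also assigned to Prune2, 76098 and 76804 bp upstream of its TSS. The downstream peak was also assigned to Vps13a, whose TSS was slightly nearer (44603 bp). Among the gene and peak pairs that could be placed on a peak, Prune2 had no other. In these placed pairs the peak at 2976 bp upstream was assigned to Foxb2 alone.

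Foxb1, which is needed in the diencephalon for the mammillary bodies and their axon tracts, had the peak of highest fold among the members. The gene lies on the minus strand at chr9:69757710-69760940 and had 3 peaks. The strongest, 83996 bp upstream at chr9:69844532-69845340, was 25.0-fold with a summit pileup of 50 fragments (interval 37.1 to 65.9) over a background of 1.04. It ranked 72 of 2652 by fold, in the top 2.71%, and 176 by q-value, and was the longest of the 13 at 809 bp. The others lay downstream, at 168113 bp (chr9:69592550-69593105) and 191895 bp (chr9:69568845-69569245), separated by 23304 bp. The first of these was 10.6-fold with a pileup of 26 fragments (interval 17.0 to 38.1). The second was 7.03-fold although its pileup of 53 fragments (interval 39.7 to 69.3) was as high as that of the strongest Foxb1 peak, over a local background of 6.68, the highest among the 13. By fold these 3 peaks ranked 72, 447 and 1070, and by q-value 176, 642 and 497, so the order of the downstream ones turned with the measure.

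The Foxb1 peaks also lay between genes, in a span of 497645 bp between Anxa2 and Bnip2 that held exactly those 3. A span with at least 3 peaks was found for 2.01% of protein-coding genes, and a shorter span than that of Foxb1 for 90.6%. The upstream peak was shared with Bnip2, 144530 bp upstream of its TSS. Both downstream peaks were shared with Anxa2, the gene of a calcium-dependent membrane-binding protein, whose TSS was nearer to them, at 139207 and 115425 bp. Anxa2 was the gene most like Foxb1 in its peaks, with 2 shared of 3 held by either gene. Foxb1 and Foxb2 had no peak in common, since they lie on different chromosomes, and their median folds were 10.6 and 10.7.

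Foxd3, a factor of pluripotent cells and of early neural crest, had 3 peaks, all upstream and all modest. The gene lies on the plus strand at chr4:99656299-99658671. The peak 4527 bp upstream (chr4:99651644-99651900) was 4.91-fold with a pileup of 9 fragments (interval 4.12 to 17.1), and its −log10 q-value was 3.25. The other peaks formed a pair 528 bp apart, at chr4:99574294-99574552 and chr4:99575081-99575393, 81876 and 81062 bp upstream. They were 5.14-fold and 6.37-fold with pileups of 20 and 25 fragments (intervals 12.2 to 30.9 and 16.2 to 36.9), both over a local background of 3.08. Among the placed pairs, no other gene shared a Foxd3 peak, while every peak of Foxb1, Foxk1 and Foxo1 was shared. Pairs that could not be placed were not searched, so a gene sharing a Foxd3 peak may be missed. Foxd3 lies in a span of 418337 bp between its protein-coding neighbours Atg4c, an autophagy protease gene, and Alg6, a glycosylation enzyme gene. The 3 peaks were the only ones in this span.

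Close pairs of peaks were found at Foxb2 and Foxd3. In all, 4 of the 13 member peaks had another peak within 1 kb, against 193 of all 2652 peaks (7.28%). The 4 count both peaks of each pair, so they are not separate cases. Both partners of a pair were assigned to the same gene. Genes are assigned by position, so at this distance a shared gene carries little information. The pair at Foxb2 was unequal, at 17.9-fold and 3.36-fold, and the pair at Foxd3 nearly equal.

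Foxb2 and Foxd3 were the members with a peak within 5 kb of the TSS, and the sequence just upstream of both genes is shown. No genome sequence was used here, so the peaks themselves are not shown. Each window is the 250 bases before the annotated start in RefSeq (GRCm38.p6), read 5′ to 3′ on the strand of the gene, at chr19:16873831-16874080 (minus strand) for Foxb2 and chr4:99656049-99656298 (plus strand) for Foxd3. Capitals mark ATGC or its reverse complement GCAT, the first letters of the octamer.
Foxb2: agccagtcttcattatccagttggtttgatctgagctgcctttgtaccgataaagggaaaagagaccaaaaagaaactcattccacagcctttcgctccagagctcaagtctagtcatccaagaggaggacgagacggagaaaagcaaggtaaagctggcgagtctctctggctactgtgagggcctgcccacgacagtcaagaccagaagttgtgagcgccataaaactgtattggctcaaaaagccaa
Foxd3: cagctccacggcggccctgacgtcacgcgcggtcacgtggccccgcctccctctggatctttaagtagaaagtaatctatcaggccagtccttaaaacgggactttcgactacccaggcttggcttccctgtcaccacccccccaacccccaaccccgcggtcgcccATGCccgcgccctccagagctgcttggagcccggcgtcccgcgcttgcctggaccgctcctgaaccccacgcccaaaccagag

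These windows held no part of a peak. The nearest peak ended 2619 bp from the Foxb2 window and 4149 bp from the Foxd3 window. The octamer ATGCAAAT, searched on both strands with its reverse complement ATTTGCAT, was in neither window, nor in those of Foxn4, Foxc1 and Foxo1, and it was in 1.62% of the 32536 windows of this length in the table. Allowing 1 mismatch, it was in 16.6% of all windows and again in none of the 5. The forkhead word GTAAACA, on both strands, was in none of the 5 and in 3.17% of all. The 4 letters marked in capitals occurred in the Foxd3 window at 1 place, starting 83 bases before the start site, and not in the Foxb2 window, while 69.9% of all windows held them. They were also in the windows of Foxn4 (2 overlapping matches within the palindrome GCATGC) and Foxc1 (1 place), and not in that of Foxo1. The Foxd3 window was richer in G and C, at 65.6%, than the Foxb2 window, at 48.4%. The table had no entry for Foxb1 and Foxk1. Matches are letters only, and their absence from these windows says nothing about the peaks, which lie outside them.

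Foxo1, the forkhead effector that insulin and growth factor signalling through PI3K and Akt keeps out of the nucleus, had 2 peaks far downstream. The gene lies on the plus strand at chr3:52268337-52350109. Its peaks were at 267416 bp (chr3:52535588-52535917) and 412784 bp (chr3:52680996-52681244) from the TSS, and both were beyond the end of the gene. The first was 8.84-fold with a pileup of 17 fragments (interval 9.90 to 27.2) over a background of 1.04. The second was 6.37-fold with a pileup of 25 fragments over a background of 3.08, so the peak of higher fold had the lower pileup. They lay inside Gm30173 and Gm30235, which are annotated as long non-coding RNA genes. Both were also assigned to Cog6, a gene of Golgi transport, which had no other placed peak. The second was nearer to the Cog6 TSS (336117 bp) than to that of Foxo1. A peak closer to the Foxo1 start, 206269 bp away, was 6.50-fold and was assigned to Maml3, a coactivator gene of Notch signalling, and Mgst2 and not to Foxo1.

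Foxk1, which represses autophagy genes and promotes glycolysis, had 1 peak, 223090 bp upstream. It lay at chr5:142178267-142178553, with the gene on the plus strand at chr5:142401497-142462015. Its fold of 4.91 and pileup of 9 fragments (interval 4.12 to 17.1) equalled those of the Foxd3 peak nearest to the TSS, and 94 peaks of the list shared this fold and p-value. The peak stood inside Sdk1, whose product is an adhesion molecule of synaptic layers in the retina, 936920 bp downstream of the Sdk1 TSS. It was the only peak of Foxk1 and the only placed peak of Sdk1. Of the 13 peaks, no other lay outside the span between its gene's neighbours.

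**Figure D2:**
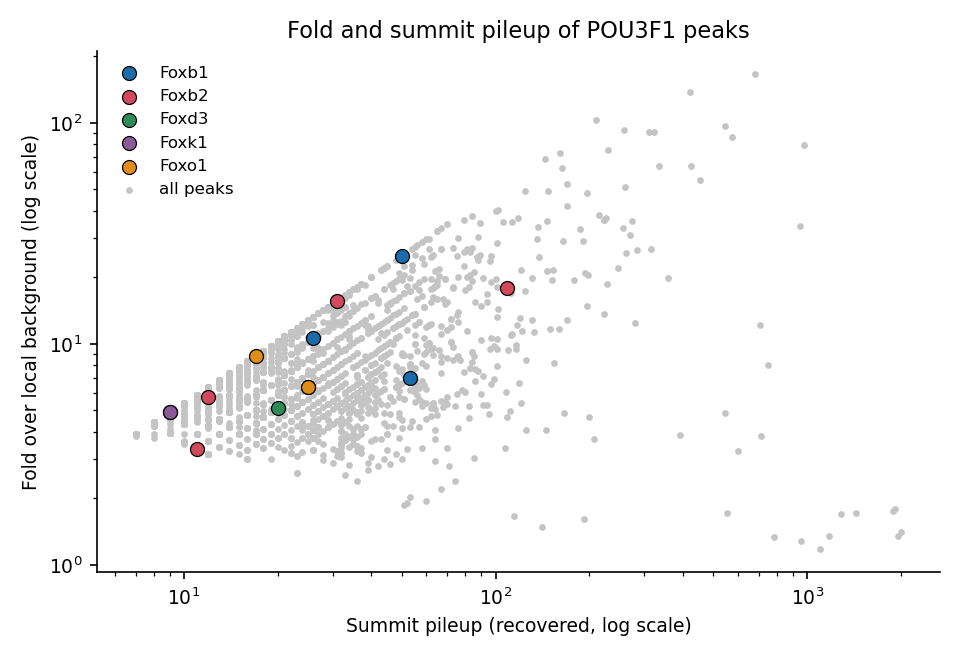
Fold over the local background against the recovered summit pileup, both on log scales, for the peaks of Foxb1, Foxb2, Foxd3, Foxk1 and Foxo1 (coloured) and for all 2608 peaks with a recovered pileup (grey). The Foxb1 and Foxb2 peaks reach 25.0-fold and a pileup of 109, the Foxd3 and Foxk1 peaks stay at or under 6.37-fold, and 2 Foxd3 points lie hidden under a Foxo1 and a Foxk1 point of equal values.

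The local background also varied among the members' peaks. It was 1.04 for 5 of the 13, the lowest among them, and 30.1% of all peaks with a recovered pileup had that background within 0.001 or a lower one. It ran up to 6.68 at Foxb1 and 5.14 at Foxb2. Pileups were under 20 fragments in 5 of the 13 peaks, against 51.5% of all. A q-value under 0.001 was held by 12 of the 13. Most of all 2652 peaks also passed this limit, since a −log10 q-value of 3.25 ranked 2312.

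Foxn4 and Foxc1 are the members with the best known roles in the eye, and neither had an assigned peak. For Foxn4, at chr5:114254164-114274418, the nearest peak of any kind was 578152 bp from its TSS and was assigned to 4930519G04Rik. A nearer peak was found for 46.3% of the 17494 protein-coding genes with an annotated start, whose median was 645038 bp. The span between its neighbours Acacb and Myo1h was 38491 bp, shorter than the median of 76620 bp over protein-coding genes. For Foxc1, a gene of the periocular mesenchyme and the anterior segment at chr13:31806646-31810635, the nearest peak was 1642913 bp away and was assigned to Agtr1a and Mboat1. A nearer peak was found for 80.1% of protein-coding genes. The forkhead genes Foxf2, its neighbour, and Foxq1, the next gene beyond Foxf2, had none either. The spans of Foxc1, Foxf2 and Foxq1 measured 188176, 245669 and 651719 bp and held no peak.

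Within the forkhead family, an assigned peak was found for 11 of 44 genes (25.0%), against 10.2% of all protein-coding genes. The 5 members with a peak are among the 11, so the count is not independent of the choice. Of the other 37 genes, 6 had a peak, 3 of them Foxp genes and 3 outside Foxp. No excess of the family over all protein-coding genes is claimed. Foxp1, Foxp2 and Foxp4, of the subfamily whose members act in neuronal development, had 12, 11 and 1 peaks, 24 of the family's 43 pairs. Their strongest folds were 10.5, 8.35 and 5.90, all under the strongest peaks of Foxb1 and Foxb2. Foxn3 had 3 peaks (strongest 11.9-fold), Foxn2 had 2 (6.88-fold, 35913 bp upstream) and Foxl1 had 1 (5.51-fold, 113935 bp downstream). Foxk2 and Foxo3, paralogs of Foxk1 and Foxo1, had none, and neither did Foxd1, whose span held no peak.

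The median span between neighbouring protein-coding genes was 418337 bp for the 11 forkhead genes with a peak, against 71346 bp for the 33 without. Assignment reaches up to 1000000 bp and stops at the domains of the neighbours, and its part in these counts was not tested. Foxb2 was the forkhead gene of the shortest span, 174596 bp, among the 11.

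**Figure D3:**
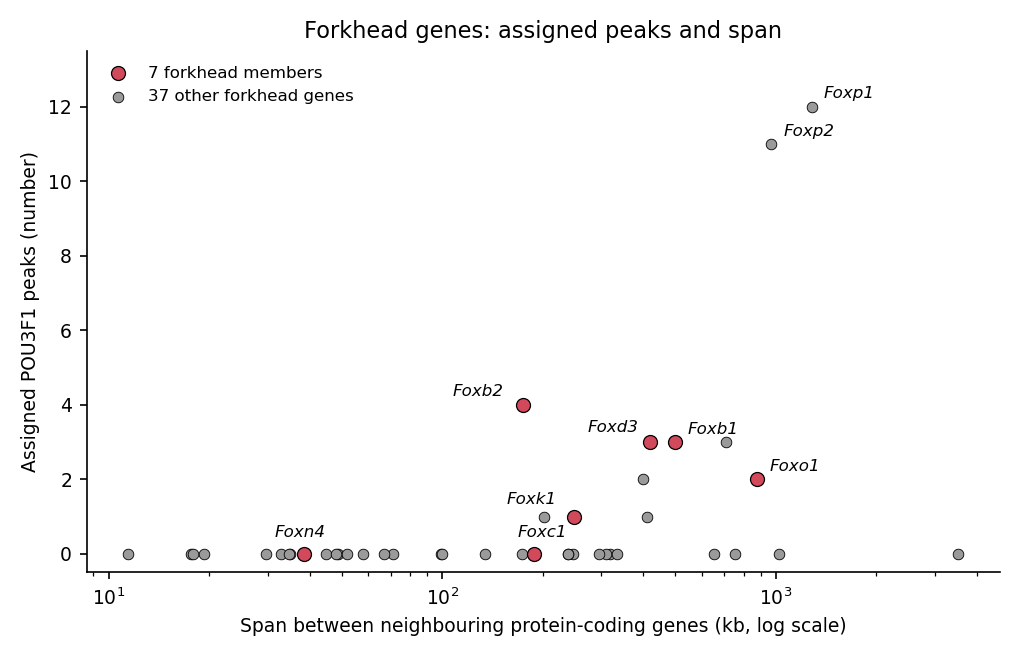
Number of assigned POU3F1 peaks against the span between neighbouring protein-coding genes (kb, log scale) for the 7 forkhead members (red) and 37 other forkhead genes (grey). Foxb2 has 4 peaks in a span of 174596 bp, Foxp1 and Foxp2 have 12 and 11, and Foxn4 and Foxc1 are at 0 beside most other forkhead genes.

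In 4 further lists of genes that work with the members, the share with a peak was above that of all protein-coding genes, although Foxn4 and Foxc1 themselves had none. The neural crest and PI3K counts include Foxd3 and Foxo1, whose peaks were known when they were chosen. In the Foxn4 network of retinal fate, 9 of 16 genes had a peak (56.2%, against 10.2%). In 7 of the 16 it was within 50 kb of the TSS, against 3.67% of protein-coding genes. Pax6, a master gene of eye development, had 7 peaks, of which the strongest (11.4-fold) was 665 bp upstream. Atoh7, which progenitors need to make ganglion cells, had 1 (8.66-fold, 10148 bp upstream), and so did Onecut1 (5.89-fold, 12907 bp upstream), Neurod4 (5.58-fold, 1873 bp upstream) and Notch1 (7.33-fold, 3036 bp downstream). Other peaks were far from the TSS. Rorb had 6 peaks (strongest 7.11-fold, 158312 bp downstream) and Prox1, a horizontal cell gene, had 2 (10.3-fold, 557733 bp upstream). Tfap2a had 1 (5.12-fold, 310581 bp downstream). The Foxn4 targets Ptf1a and Dll4 had none, nor did Neurod1, Lhx1, Tfap2b and Onecut2.

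Among neural crest specifiers, 7 of 16 had a peak (43.8%). Besides Foxd3 these were Sox9 (4 peaks, strongest 24.2-fold, 29111 bp from the TSS) and Pax3 (2, strongest 7.37-fold, 272428 bp). With 1 each there were Msx2 (8.07-fold, 161867 bp), Zic1 (7.66-fold, 682206 bp), Myc (5.40-fold, 250282 bp) and Tfap2a. In the list of periocular mesenchyme and anterior segment, 5 of 13 had one (38.5%). Among them were Lmx1b (9.28-fold, 24754 bp from the TSS), Maf (7.87-fold, 404397 bp), Eya2 (6.39-fold, 125904 bp) and Pax6. Of 23 genes of PI3K, Akt and Foxo signalling, 4 had one (17.4%). Besides Foxo1 they included Pik3r1, the regulatory subunit gene (6 peaks, strongest 18.7-fold, 186424 bp upstream). Irs1, an adaptor of the insulin receptor, was also among them (1 peak, 13.4-fold, 38421 bp upstream). Within 50 kb of the TSS, the neural crest, periocular and PI3K lists had 3, 2 and 1 genes with a peak. The share of protein-coding genes at this distance was 3.67%. These lists overlap, were made with results known and were not matched on the length of their loci, so nothing particular to them is claimed.

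**Figure D4:**
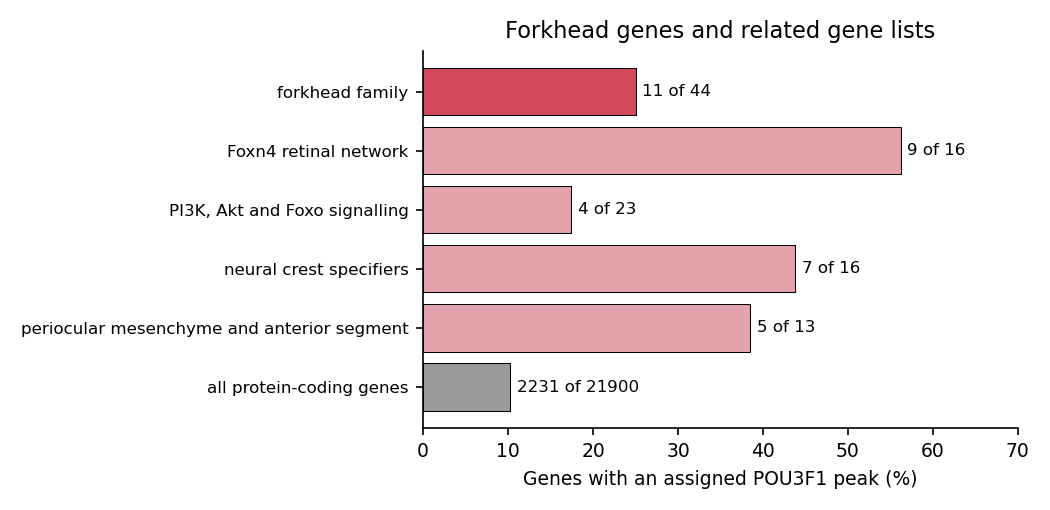
Percentage of genes with an assigned POU3F1 peak (horizontal axis) in the forkhead family, in 4 lists of genes that work with its members, and among all protein-coding genes, with the counts beside each bar. The forkhead family stands at 25.0%, the Foxn4 network at 56.2% and all protein-coding genes at 10.2%.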

How the data were processed

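Per the submitters' processing notes, reads were handled with Bowtie2, MACS2 and deepTools on mm10. The deposited peak list gives for each of 2652 intervals, at an FDR of 0.05, a fold (a ratio of summit to local background, read with 1 added to both, the default of MACS2), the −log10 of p and q, and a score equal to 10 times the −log10 q, all as the authors deposited them. Per the file headers, GREAT 4.0.4 paired peaks and genes (5000 bp upstream, 1000 bp downstream, up to 1000000 bp extension). The members and gene lists were chosen with earlier results of these data known.

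From these files (Python 3.11.15, scipy 1.17.1), each signed distance was placed on a peak midpoint within 0.5 bp. The start site and strand used were those that fit most distances of the gene. This placed 4292 of 4427 pairs (97.0%) and all 13 of the members. Genes sharing a peak, and their other peaks, were read from the placed pairs only. The summit pileup was recovered as the whole number whose Poisson p-value matched the deposited −log10 p within 0.001, for 2608 peaks (98.3%). Checked on simulated data, the recovery found 100% of 1000 pileups, and 0.2% of 1000 altered p-values were matched by a whole number. Total library depth is unknown. Intervals are exact Poisson and cover counting error only. Genes were matched to RefSeq GRCm38.p6 by symbol (2184) or synonym (86), with 53 unmatched, and coordinates are counted from 1. The genes named were the members, genes sharing their peaks, other forkhead genes with a peak, and list genes with a peak, except some list and forkhead genes that are not reported here. Genes without a peak, Maml3, Mgst2 and the neighbours of the members were named after their values were seen. No comparison between antibodies was possible, and no test was run.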

Additional observations from a re-analysis of the deposited data

How the results depend on the processing

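With 1 library there was no replicate to leave out. No paired analysis was possible because each antibody has 1 library. The counts moved with the distance limit and with the fold limit. Within 100, 50 and 5 kb of the TSS, the members held 8, 5 and 2 peaks in place of 13, in 3, 2 and 2 genes in place of 5, forkhead genes with a peak numbered 7, 4 and 3 in place of 11, and protein-coding genes 1216, 803 and 306 in place of 2231. With the nearest TSS alone, protein-coding genes with a peak numbered 1478. At 10-fold or more, the members held 4 peaks in 2 genes with a median fold of 16.8, and 4 forkhead and 608 protein-coding genes had one. A q-value limit of 0.01 or 0.001 left 12 member peaks, and all 5 members kept one. At these limits 2187 and 2100 protein-coding genes had a peak, in place of 2231. Placing on midpoints rounded down placed 9 of the 13 distances, and a tolerance of 1 bp all 13. The 3 peaks inside a gene body also had their summit inside, and the share inside gene bodies was not computed over all peaks. Pileups as low as 9 fragments limit what single peaks show, and protein identity between members was not computed.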
